A study of Mus musculus with 8 samples.

Results

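TS/A is a mouse mammary adenocarcinoma line of BALB/c origin, and 4 of the 8 RNA sequencing libraries of the study came from it. They were chosen by their label alone. The sample characteristics give 2 libraries of TS/A cells transduced with an empty virus vector and 2 of TS/A cells transduced with a vector expressing Gpr56, the older name of Adgrg1. All 4 came from cells grown in RPMI with 10% FCS, and the design text states culture with type III collagen and RNA extraction after 72 h. The titles of the same libraries oppose Emp_Control to Emp_ColIII and put Emp in the name of all 4, so the labels conflict on whether the groups differ in vector or in collagen. The groups are therefore named by the characteristics, as the libraries labelled empty and the libraries labelled Gpr56. No source used here gives the promoter of the vector or says whether the transduced cells were a pool or a clone. Separate cultures are not stated for the 2 libraries of any group, and p-values then reflect only how far these libraries spread, which may be technical. Depth was 23121313 and 19598118 reads in the libraries labelled empty, and 25959142 and 21934048 reads in the libraries labelled Gpr56.

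GPR56 is an adhesion G protein-coupled receptor. Its long extracellular part is cut from the membrane-spanning part by autoproteolysis and stays attached to it, and binding of a ligand such as type III collagen exposes a tethered agonist that drives G protein signalling to RhoA. In tumours the receptor has been linked to adhesion, migration and vessel growth. A stress programme and the mitochondrial genome recur in the results. ATF4 is the transcription factor of the integrated stress response, made when translation slows under amino acid shortage or other stress. It binds composite sites with C/EBP proteins and switches on amino acid synthesis, amino acid transport and tRNA charging. The mitochondrial genome encodes subunits of the respiratory chain and of ATP synthase, transcribed inside the organelle as long polycistronic RNAs.

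Letters of the ATF4 composite site, TGATGNAA on either strand, were looked for in the 250 bases before each gene's RefSeq start. They are shown because the ATF4 response list was the list with the largest share of members higher in both libraries labelled Gpr56. Jdp2, which is not on that list, is added as a gene with one of the widest gaps between the groups. The list members shown all lay higher in both libraries labelled Gpr56. Members with the motif whose groups overlapped, Atf3 and Slc7a11 among them, are not shown. The motif letters are in capitals within 20 bases of flank on each side, read 5′ to 3′ on the strand of the gene, from the RefSeq promoter table of build GRCm38.p6. The windows lie at chr2:119351029-119351076 (Chac1, + strand), chr7:126625553-126625600 (Nupr1, - strand), chr11:120643824-120643871 (Pycr1, - strand), chr6:7693210-7693252 (Asns, - strand, its flank ending at the gene's start) and chr12:85599363-85599410 (Jdp2, + strand). The RefSeq starts differ from the GENCODE positions used for the counts, by which the windows of Nupr1, Asns and Jdp2 lie inside the gene and those of Chac1 and Pycr1 outside it.
Chac1: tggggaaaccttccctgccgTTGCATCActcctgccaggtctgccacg
Nupr1: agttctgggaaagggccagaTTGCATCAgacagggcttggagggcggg
Pycr1: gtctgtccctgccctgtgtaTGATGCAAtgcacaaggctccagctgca
Asns: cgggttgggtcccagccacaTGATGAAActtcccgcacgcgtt
Jdp2: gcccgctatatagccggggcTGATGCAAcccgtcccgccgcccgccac
Chac1 and Nupr1 hold the letters on the strand opposite to the gene, and Pycr1, Asns and Jdp2 hold them on the gene's own strand. The motif was present in 9 of the 31 ATF4-list members with a promoter in the table (29.0%) and in 202 of 8891 tested genes with a promoter (2.27%). Among tested genes higher in both libraries labelled Gpr56 than in both labelled empty, 3.36% held it, and among those lower in both, 2.21%. A match is a run of letters, not a shown binding site, and the list was assembled from known ATF4 targets.

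Adgrg1 checks the label, since the vector was to raise it. Its level in CPM (read counts over the library total, scaled between libraries by TMM) was 34.3 in empty library 1 and 16.6 in empty library 2, against 22.6 in Gpr56 library 1 and 13.3 in Gpr56 library 2. The groups overlapped, and the highest value belonged to a library labelled empty. The means were 25.4 ± 12.5 CPM in the libraries labelled empty and 17.9 ± 6.61 CPM in the libraries labelled Gpr56 (SD, n = 2 each). The log2 fold change was -0.51, with an SE of 0.41 and an adjusted p of 1 in edgeR's quasi-likelihood fit. Transcript ENSMUST00000093271 held most of the reads, with 840 and 284 in the libraries labelled empty and 580 and 284 in the libraries labelled Gpr56. Adgrg1 was thus not shown to be raised under the Gpr56 label in TS/A. Every direction below is that of the libraries labelled Gpr56 and says nothing of receptor level. The direction rested on single libraries: with empty library 1 left out the log2 fold change became 0.14, and with empty library 2 left out -0.93. In edgeR the latter had an adjusted p of 0.0348, and over all alternatives adjusted p ran from 0.0348 to 1. In a bulk library the share of expressing cells and the RNA per cell cannot be told apart.

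**Figure D1:**
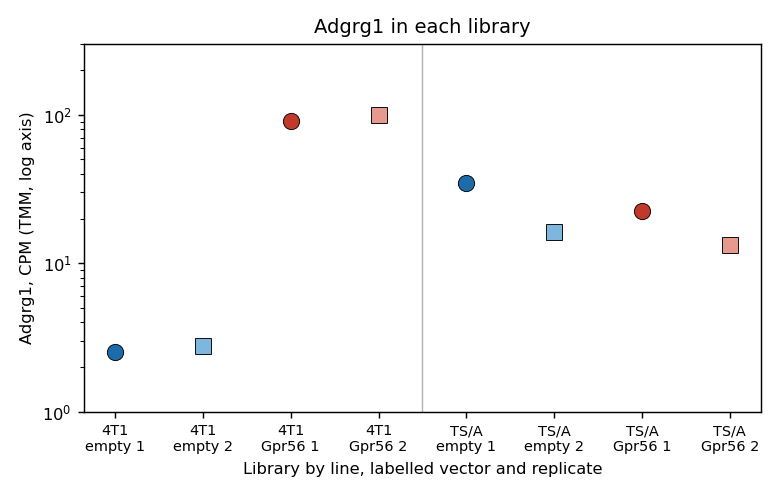
Adgrg1 in CPM (vertical log axis) in each of the 8 libraries, by line, labelled vector and replicate. In TS/A the 4 values lie between 13.3 and 34.8 in the fit of 8 libraries and the labelled groups overlap, whereas in 4T1 the libraries labelled Gpr56 stand at 90.5 and 100.1 against 2.53 and 2.77.

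The receptor family and the signalling partners of GPR56 gave no call. Of 30 listed genes 21 were tested, 3 were higher in both libraries labelled Gpr56 and 0 were lower in both, and the median log2 fold change was -0.04, against -0.02 over all 11276 genes. Over all genes tested, 1234 (10.9%) were higher in both libraries labelled Gpr56 and 1231 (10.9%) were lower in both, 21.9% together. Those 3 were adhesion receptors. Adgra2, known from vessel growth in the brain, was at 17.7 and 17.5 CPM in the libraries labelled empty and 18.4 and 26.8 CPM in the libraries labelled Gpr56. Adgra3 was at 66.9 and 60.3 CPM against 68.2 and 71.8 CPM, and Adgrg6, a relative of Adgrg1 that is best known from myelination, was below 1.3 CPM throughout. The separation of Adgra2 and Adgra3 was narrow, since Gpr56 library 1 lay close to the libraries labelled empty. RhoA itself (Rhoa) was at 470.7 and 609.1 CPM against 494.5 and 540.1 CPM. Gna13, the G protein alpha subunit that activates RhoA exchange factors, was at 133.3 and 87.5 CPM against 103.1 and 95.8 CPM. Both overlapped. The transcript of the ligand, Col3a1, was not among the genes tested, with 1 read in all 4 libraries together.

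Across the transcriptome, 0 of 11276 genes (0%) passed an adjusted p of 0.05 in either direction by edgeR's quasi-likelihood test, and the smallest adjusted p was 1. At an unadjusted p under 0.05 there were 59 higher (0.523%) and 56 lower (0.497%) genes, 1.02% of those tested. DESeq2 called 1 higher and 2 lower genes, limma-voom called 0, and edgeR on all 8 libraries together called Prl2c2 alone. With 1 library left out, edgeR called 687 higher and 453 lower genes without empty library 2, and 3 higher and 10 lower without empty library 1. In such a fit the lone library of its group is assumed to vary like the other group. No gene below is therefore said to have risen or fallen, and the values stand as levels in each library.

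Prl2c2 and mt-Atp8 had the smallest p-values among the named genes. Prl2c2, which encodes a proliferin, a secreted growth factor of the prolactin family, was at 156.1 and 173.4 CPM in the libraries labelled empty and at 65.9 and 58.5 CPM in the libraries labelled Gpr56. The libraries of each group lay close together and far from the other group. Its log2 fold change was -1.40 (SE 0.18, adjusted p = 1 by edgeR). The Prl2c genes are near-identical copies on chromosome 13, and reads may have been split among them. Prl2c3, a neighbour of Prl2c2, was at 56.2 and 88.04 CPM against 38.8 and 27.6 CPM (log2 fold change -1.12, SE 0.29). mt-Atp8, a small mitochondrially encoded subunit of ATP synthase, was at 159.1 and 208.8 CPM against 63.9 and 63.5 CPM, a log2 fold change of -1.53 (SE 0.20, adjusted p = 1 by edgeR).

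The genes with the widest gap between the groups on the log2 scale, among those whose mean reached 10 CPM or more in the higher of the groups, were taken as 10 in each direction. Among the higher ones were Hmox1, the heme oxygenase of the oxidative stress response, and Sesn2, a stress-induced sestrin that restrains mTORC1. Hmox1 was at 129.1 and 121.8 CPM in the libraries labelled empty and at 179.6 and 176.8 CPM in the libraries labelled Gpr56 (log2 fold change 0.51, SE 0.16). Both pairs were tight. Sesn2 was at 12.6 and 14.8 CPM against 20.6 and 29.5 CPM (log2 fold change 0.87, SE 0.24). Noct, the nocturnin gene named for its circadian rhythm in other tissues, was at 87.2 and 102.0 CPM against 182.9 and 136.9 CPM. Leucine zipper repressors were in the same set: Jdp2, whose promoter window is shown above, at 31.1 and 33.5 CPM against 44.6 and 49.3 CPM, and Nfil3 at 17.9 and 18.7 CPM against 24.6 and 30.7 CPM. The remaining higher genes were Rps18, Fggy, Gne, Gtpbp2 and Mib2. Rps18, a ribosomal protein gene, had the widest gap, at 145.1 and 262.7 CPM against 391.7 and 376.3 CPM, but ribosomal protein genes have many processed copies in the genome and its reads are uncertain for that reason.

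On the lower side stood Cxcl5, a neutrophil-attracting chemokine, at 187.0 and 174.3 CPM in the libraries labelled empty and 118.2 and 102.8 CPM in the libraries labelled Gpr56 (log2 fold change -0.71, SE 0.18). Vma21, an assembly factor of the vacuolar proton pump, was at 39.7 and 46.9 CPM against 26.8 and 27.8 CPM. Cd164, which encodes the sialomucin endolyn, was at 338.6 and 310.2 CPM against 227.9 and 226.5 CPM. By the rule of choice, no library of a group came within the range of the other group in any of the 20 genes. Mbnl3, a muscleblind RNA-binding protein, was at 11.6 and 10.1 CPM against 7.31 and 6.22 CPM. The other lower genes were Prl2c2, Prl2c3 and 4 mitochondrially encoded genes, mt-Atp8, mt-Nd2, mt-Nd3 and mt-Atp6. In all 20 genes the adjusted p was 1 after rounding.

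**Figure D2:**
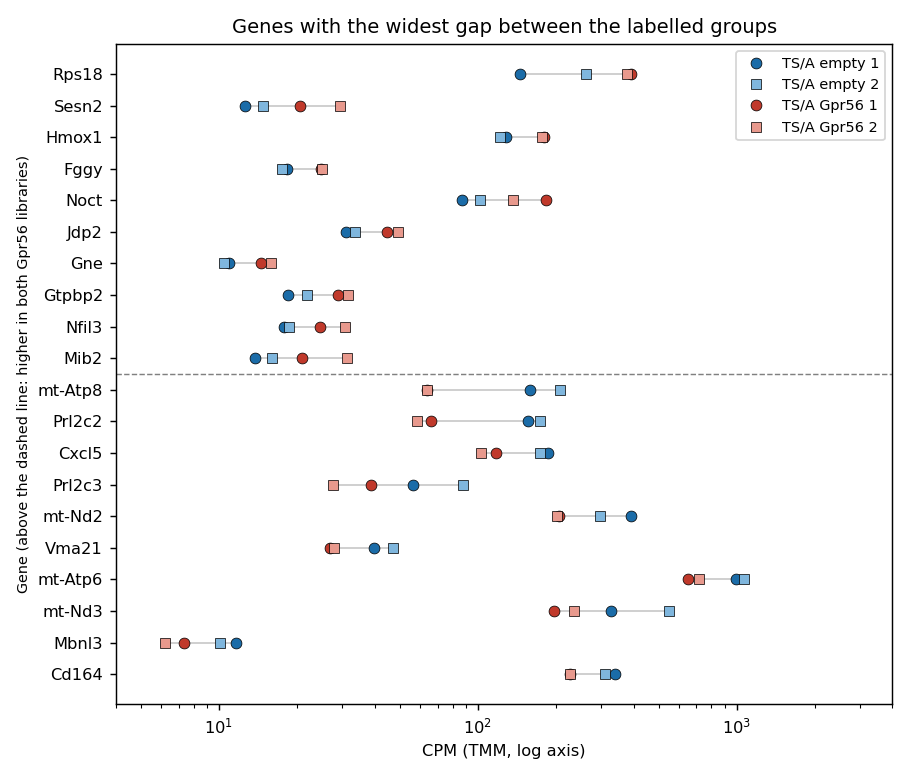
CPM (horizontal log axis) of the 10 genes above and 10 genes below the dashed line with the widest gap between the labelled groups in TS/A, with a point for each library. Blue points are the libraries labelled empty and red points the libraries labelled Gpr56, and by construction the colours do not mix. mt-Atp8 and Prl2c2 show the widest spaces, from 63.9 to 159.1 CPM and from 65.9 to 156.1 CPM between the nearest libraries of the groups.

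The ATF4 response list held the largest share of higher members. Of 41 listed genes 39 were tested. In 22 of them (56.4%) both libraries labelled Gpr56 exceeded both labelled empty, against 10.9% of all genes, and in 1 (2.56%) both were lower. The median log2 fold change was 0.39, against -0.02 over all genes, and 0 members passed the adjusted test. An unadjusted p under 0.05 was found for 6 members upwards (0.523% of all genes) and 0 downwards (0.497% of all genes). The list was ordered mainly by library. In 31 of 39 members empty library 1 was the lowest of the 4 (36.6% of all genes), and in 32 Gpr56 library 2 was the highest (17.7% of all genes). The empty libraries themselves differed, with empty library 2 above empty library 1 in 32 members (5581 of all 11276 genes). The median log2 difference between empty library 1 and empty library 2 was -0.45. Without empty library 1, both libraries labelled Gpr56 exceeded empty library 2 in 25 of 39 members (37% of all genes) and lay below it in 3 (38.5% of all genes). Without empty library 2, both exceeded empty library 1 in 34 members (41.3% of all genes). The list median was 0.28 in the fit without empty library 1 and 0.72 in the fit without empty library 2.

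Regulators of the response came first. Ddit3, which encodes the stress factor CHOP, was at 8.24 and 13.9 CPM in the libraries labelled empty and at 15.7 and 24.3 CPM in the libraries labelled Gpr56 (log2 fold change 0.86, SE 0.34). Trib3, a pseudokinase that feeds back on ATF4, was at 26.3 and 62.6 CPM against 63.1 and 108.5 CPM (log2 fold change 0.95, SE 0.45). In Trib3 empty library 2 and Gpr56 library 1 were nearly equal, with empty library 1 below and Gpr56 library 2 above them. Nupr1, a small stress-induced chromatin protein, was at 17.6 and 19.2 CPM against 24.4 and 31.9 CPM (log2 fold change 0.61, SE 0.21), with close values within the libraries labelled empty. Chac1, a glutathione-degrading enzyme, was at 10.1 and 19.8 CPM against 20.7 and 28.6 CPM (log2 fold change 0.73, SE 0.36). Atf4 itself overlapped, at 487.7 and 745.5 CPM against 733.3 and 869.0 CPM. ATF4 is known to be controlled mainly at translation. Atf3, Cebpb and Cebpg, which encode partners and co-regulators, also overlapped, and 6 of 11 regulators and stress effectors in all lay higher in both libraries labelled Gpr56, against 10.9% of all genes. Empty library 1 was the lowest in 9 of the 11.

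Among enzymes of amino acid and one-carbon metabolism, 6 of 12 lay higher in both libraries labelled Gpr56 (10.9% of all genes), and empty library 1 was the lowest in all 12. Aldh1l2, a mitochondrial folate enzyme, had the largest log2 fold change of the list at 1.20 (SE 0.44), with 9.57 and 20.4 CPM in the libraries labelled empty and 23.8 and 44.6 CPM in the libraries labelled Gpr56. Pycr1, of proline synthesis, was at 15.2 and 19.4 CPM against 22.5 and 31.1 CPM (log2 fold change 0.63, SE 0.24). Asns, the asparagine synthetase, was at 203.1 and 338.2 CPM against 348.2 and 454.2 CPM (log2 fold change 0.57, SE 0.30). In Asns empty library 2 and Gpr56 library 1 were close, while the libraries labelled empty lay far apart. Gpt2, which makes alanine and 2-oxoglutarate, was at 29.4 and 58.1 CPM against 61.1 and 93.5 CPM (log2 fold change 0.82, SE 0.37). Cth, of cysteine synthesis, was at 22.3 and 54.0 CPM against 53.9 and 104.4 CPM and just overlapped. The serine synthesis genes Phgdh, Psat1 and Psph overlapped as well. Psph was at 70.2 and 218.7 CPM against 167.5 and 248.4 CPM, so that the libraries labelled empty differed more than the groups did.

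Amino acid transporters were mixed, with 4 of 8 higher in both libraries labelled Gpr56 and 1 lower, against 10.9% of all genes in each direction. Empty library 1 was the lowest in 3 of the 8. Slc1a4, a neutral amino acid carrier, was at 55.2 and 53.4 CPM against 70.0 and 77.3 CPM (log2 fold change 0.44, SE 0.17), and its empty libraries agreed closely. Slc3a2, the heavy chain shared by several amino acid exchangers, was at 201.7 and 276.2 CPM against 300.9 and 361.8 CPM. Slc7a11, the cystine carrier, was at 90.8 and 142.6 CPM against 127.9 and 207.0 CPM and overlapped. The lower transporter, Slc7a3, was below 0.6 CPM in every library. The remaining member outside these classes, Stc2, overlapped. Of the aminoacyl-tRNA synthetases 6 of 7 were higher in both libraries labelled Gpr56 (10.9% of all genes), with Mars overlapping. Empty library 1 was the lowest in 6 of the 7. Sars, which charges serine tRNA, was at 302.2 and 537.4 CPM against 553.3 and 716.4 CPM. Eprs was the closest of the 6, at 350.7 and 320.6 CPM against 354.6 and 408.7 CPM. Of the 9 list members with the composite motif 6 lay higher in both libraries labelled Gpr56 and 3 overlapped, and of the 22 with a promoter and no motif 11 lay higher and 11 overlapped.

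The mitochondrially encoded genes were the mirror case. In 8 of 13 (61.5%) both libraries labelled Gpr56 were below both labelled empty, against 10.9% of all genes, and in 0 were both above. In 5 members the unadjusted p was under 0.05 downwards (0.497% of all genes). The median log2 fold change of the 13 was -0.63, and 0 passed the adjusted test. Reads on these genes made up 0.859% and 0.655% of the libraries labelled empty and 0.517% of each library labelled Gpr56. Without empty library 2 both libraries labelled Gpr56 lay below empty library 1 in all 13 (41.9% of all genes). Without empty library 1 they lay below empty library 2 in 8 of 13 (38.5% of all genes), and the list median moved to -0.17. Subunits of complex I, the NADH dehydrogenase, included mt-Nd2 at 390.0 and 297.5 CPM against 206.8 and 202.3 CPM (log2 fold change -0.75, SE 0.20). mt-Nd1 was at 560.1 and 411.0 CPM against 307.3 and 319.1 CPM (log2 fold change -0.63, SE 0.22). In both genes the libraries labelled Gpr56 were nearly equal and empty library 1 was the highest. mt-Nd3 was highest in empty library 2, at 328.0 and 550.5 CPM against 197.7 and 235.3 CPM (log2 fold change -1.02, SE 0.29). mt-Nd4 was at 311.0 and 159.2 CPM against 151.5 and 126.9 CPM (log2 fold change -0.76, SE 0.33), with only empty library 1 standing away from the rest.

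Of the ATP synthase subunits, mt-Atp6 was at 998.2 and 1069 CPM against 648.0 and 714.9 CPM (log2 fold change -0.60, SE 0.20), and mt-Atp8 has been given above. The reading frames of these genes overlap on the mitochondrial genome (mt-Atp8 at 7766 to 7969 and mt-Atp6 at 7927 to 8607 of GRCm38), and counting may have divided shared reads between them. Subunits of cytochrome c oxidase behaved unequally. mt-Co3 was at 1826 and 2275 CPM against 1412 and 1604 CPM and mt-Co2 at 743.2 and 547.1 CPM against 486.7 and 492.7 CPM, both without overlap. mt-Co1 was at 1699 and 951.2 CPM against 1039 and 939.7 CPM, and mt-Cytb of complex III at 631.7 and 355.3 CPM against 389.2 and 351.2 CPM, both overlapping. In those last genes empty library 2 was close to the libraries labelled Gpr56. Of 46 respiratory subunits encoded in the nucleus, 2 were higher and 1 was lower in both libraries labelled Gpr56 (10.9% of all genes in each direction), and the median log2 fold change was 0.05. This list turned with the empty library used. Without empty library 1, both libraries labelled Gpr56 lay below empty library 2 in 40 of 46 (38.5% of all genes), and the median was -0.21. Without empty library 2, both exceeded empty library 1 in 41 of 46 (41.3% of all genes), and the median was 0.35.

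**Figure D3:**
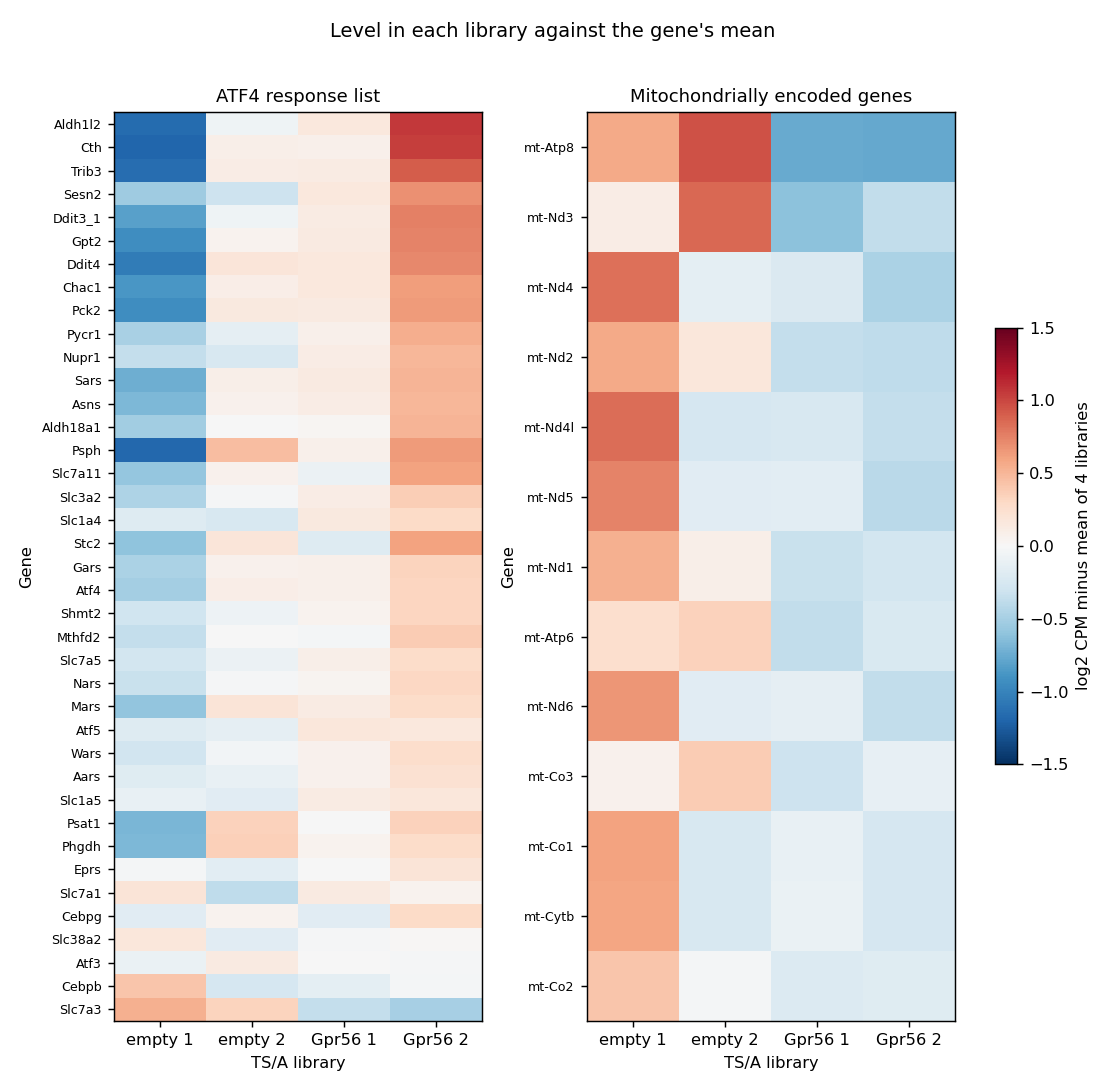
Colour gives log2 CPM minus the mean of the 4 TS/A libraries, for the 39 tested members of the ATF4 response list (left) and the 13 mitochondrially encoded genes (right), ordered by log2 fold change. In the ATF4 list empty library 1 is the lowest (median -0.49) and Gpr56 library 2 the highest (median 0.35), with empty library 2 at -0.003 and Gpr56 library 1 at 0.08. In the mitochondrial list empty library 1 is the highest (median 0.56).

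Other lists related to stress, metabolism and the tumour surroundings separated less. In the glycolysis and hypoxia list 12 of 40 members (30.0%) were higher in both libraries labelled Gpr56 and 2 lower, against 10.9% of all genes in each direction, with a median log2 fold change of 0.12. Without empty library 1 the higher count was 19 (37% of all genes) and without empty library 2 it was 28 (41.3% of all genes). Aldoc, a glycolytic aldolase, was at 35.5 and 36.5 CPM against 57.2 and 47.5 CPM (log2 fold change 0.54, SE 0.18). Ndrg1, a hypoxia-induced gene, was at 82.4 and 100.8 CPM against 118.1 and 128.7 CPM. Vegfa, the main vessel growth factor of the angiogenesis list, was at 106.4 and 103.3 CPM against 125.9 and 112.4 CPM. These are modest separations, and the angiogenesis list as a whole had 6 of 18 higher and 0 lower (10.9% of all genes in each direction) and a median of -0.01. In the NRF2 list, the oxidative stress programme that includes Hmox1, 8 of 25 (32.0%) were higher and 1 was lower (10.9% of all genes in each direction), with a median of 0.08. Without empty library 2 the higher count of the NRF2 list was 17 (41.3% of all genes), and without empty library 1 it was 12 (37% of all genes). Srxn1, which repairs peroxiredoxins, was at 185.8 and 193.2 CPM against 241.9 and 226.1 CPM.

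Of the cholesterol synthesis genes 4 of 25 (16.0%) were lower in both libraries labelled Gpr56 and 1 was higher, near the 10.9% of all genes in each direction, with a median of -0.14. Without empty library 1 the lower count was 9 (38.5% of all genes) and without empty library 2 it was 12 (41.9% of all genes), and with single libraries left out the median ran from -0.30 to 0.02. Idi1, an isomerase of the isoprenoid units, was at 496.3 and 609.6 CPM against 412.1 and 359.6 CPM (log2 fold change -0.52, SE 0.21). Hmgcs1, an early enzyme of the pathway, was at 497.8 and 431.2 CPM against 407.0 and 276.2 CPM (log2 fold change -0.44, SE 0.25). Of the chemokines and cytokines 5 of 24 were lower, Cxcl5 among them, and 2 were higher (10.9% of all genes in each direction), with a median of -0.18. Cxcl1, the most abundant, was at 335.3 and 615.3 CPM against 394.0 and 496.8 CPM and overlapped. Of the G1-S genes 5 of 31 (16.1%) were lower and 0 higher, again near the 10.9% of all genes, with a median of -0.09. Slbp, which binds histone mRNA, was at 146.3 and 147.0 CPM against 117.6 and 111.4 CPM (log2 fold change -0.36, SE 0.16).

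Targets of YAP and SRF, which act downstream of RhoA, had 6 of 30 lower and 1 higher, with a median of -0.10. For these and the following lists the share of all genes was 10.9% in each direction. Actb and Actg1 overlapped, Actb being at 2435 and 2260 CPM against 2484 and 2187 CPM. Of the TGF-beta list 2 of 23 were higher and 2 lower, with a median of -0.19. Matrix genes had 2 of 31 in each direction and a median of -0.15, while the empty libraries differed in this list by a median of 0.74 on the log2 scale. Ribosomal protein genes had 2 of 79 higher and 0 lower, with a median of 0.11. Empty library 2 exceeded empty library 1 in all 79 (5581 of all 11276 genes). Without empty library 1, both libraries labelled Gpr56 lay below empty library 2 in 67 (38.5% of all genes). Without empty library 2, both exceeded empty library 1 in 77 (41.3% of all genes). Over the other 14 lists, with 309 tested entries, 37 were higher and 34 lower in both libraries labelled Gpr56, close to the 10.9% of all genes in each direction, and list medians ran from -0.28 to 0.04.

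**Figure D4:**
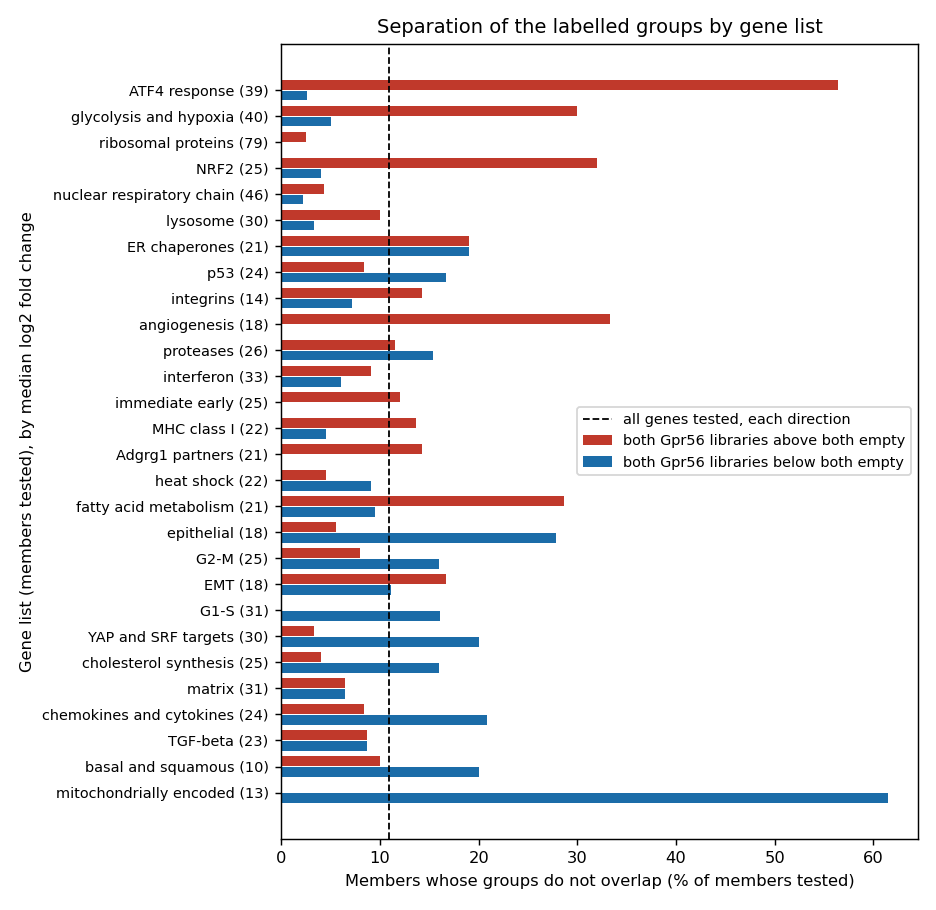
Share of the tested members of each list (number in brackets) whose labelled groups did not overlap, in % on the horizontal axis, with red bars for members higher and blue bars for members lower in both libraries labelled Gpr56. The dashed line marks 10.9%, the share of all genes tested in each direction. The ATF4 list reaches 56.4% higher and the mitochondrially encoded genes 61.5% lower.

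The libraries labelled empty were the least alike of the 6 pairs within TS/A. Between them 756 genes (6.7%) differed by more than 2-fold, 334 (2.96%) being higher in empty library 1 and 422 (3.74%) in empty library 2. Between the libraries labelled Gpr56 the count was 258 (2.29%). Genes higher in empty library 1 included C3, the central complement component, at 63.0 CPM in empty library 1 and 14.8 in empty library 2, against 31.5 in Gpr56 library 1 and 10.2 in Gpr56 library 2. Notum, a secreted Wnt inhibitor, followed the same order, at 64.9, 15.3, 41.9 and 8.76 CPM. Axin2, a classical Wnt target, was at 20.5 and 6.68 CPM in the libraries labelled empty and at 12.3 and 4.38 CPM in the libraries labelled Gpr56. In these 3 genes library 1 of each group was above library 2 of both groups. Ltbp2, a matrix protein that binds fibrillin, was at 98.3, 31.5, 64.5 and 28.1 CPM in the same order of libraries. Higher in empty library 2 were short transcripts such as Mrpl53, a mitochondrial ribosomal protein, at 35.3 CPM in empty library 1 and 102.1 in empty library 2, with 70.4 and 83.5 CPM in the libraries labelled Gpr56. Tefm, a mitochondrial transcription elongation factor, was at 14.1 and 42.6 CPM, with 26.0 and 33.4 CPM between them. For the genes higher in empty library 1, Gpr56 library 1 lay at a median of 59.1% and Gpr56 library 2 at 24.7% of the log2 distance from empty library 2 to empty library 1.

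The difference between the libraries labelled empty moved with transcript length. Genes were split by length into 5 classes of equal number. In the shortest class (median 1172 bases) the median log2 difference between empty library 1 and empty library 2 was -0.51, in the middle class (2826 bases) 0.01 and in the longest class (5953 bases) 0.45. Spearman's rho with length across 11275 genes was 0.58, given as a description, since genes of a library share its preparation and are not independent. For the libraries labelled Gpr56 it was 0.11, and for the log2 fold change between the groups it was -0.24. The matrix genes, with a median length of 5930 bases, and the ribosomal protein genes, with 726 bases, stood at opposite ends. With the length trend removed from each library, 0 genes passed (smallest adjusted p 0.681 by edgeR), 218 had p under 0.05, and the median of the ATF4 list was 0.38 and that of the mitochondrial list -0.73. The part of RNA quality or library preparation in this trend was not tested.

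**Figure D5:**
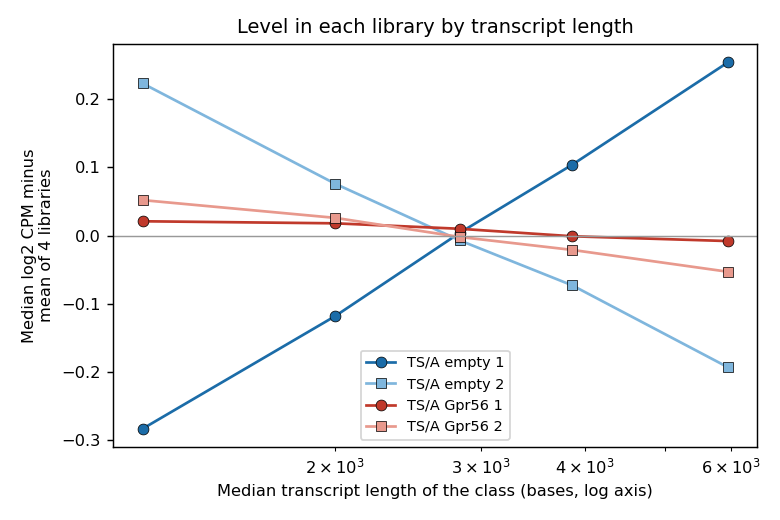
Median of log2 CPM minus the mean of the 4 TS/A libraries (vertical axis) for genes in each of 5 classes of transcript length, against the median length of the class in bases (log axis), with a line for each library. Empty library 1 climbs from -0.28 to 0.25, empty library 2 descends from 0.22 to -0.19, and the libraries labelled Gpr56 stay between -0.05 and 0.05.

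The comparison of the labelled groups was set against that of 4T1, the other BALB/c mammary cancer line, in which 4 libraries carry the same vector labels in the characteristics. The difference between the lines (TS/A minus 4T1, in 1 edgeR fit of 8 libraries and 11970 genes) passed for 8 genes, 2 higher (0.0167%) and 6 lower (0.0501%) in TS/A. Adgrg1 was among them, at 2.53 and 2.77 CPM in 4T1 labelled empty and 90.5 and 100.1 CPM in 4T1 labelled Gpr56. Its difference was -5.67 (SE 0.55, adjusted p = 0.0204 by edgeR). Prl2c2 parted in the opposite direction in 4T1, at 5.23 and 5.03 CPM in the libraries labelled empty and 9.50 and 10.9 CPM in those labelled Gpr56, with a difference of -2.38 (SE 0.19, adjusted p = 0.00774 by edgeR). Mal, a raft-associated membrane protein, was at 3.16 and 3.02 CPM against 0.990 and 1.29 CPM in TS/A and at 47.5 and 52.1 CPM against 140.3 and 154.8 CPM in 4T1 (difference -3.01, SE 0.23, adjusted p = 0.00774 by edgeR). Krt14, a basal keratin, was at 1.93 and 1.72 CPM against 0.762 and 0.692 CPM in TS/A and at 46.7 and 46.8 CPM against 71.7 and 72.5 CPM in 4T1. Vcam1, an adhesion molecule for leukocytes, was at 3.57 and 3.55 CPM against 5.52 and 6.18 CPM in TS/A, and at 143.2 and 141.7 CPM against 74.7 and 79.0 CPM in 4T1. Thus Prl2c2, Mal and Krt14 were lower under the Gpr56 label in TS/A and higher in 4T1, and Vcam1 the reverse. No TS/A difference passed in the fit of TS/A alone. In the edgeR fit of 8 libraries the TS/A difference passed for Prl2c2 (adjusted p = 0.0327) and not for Mal, Krt14 or Vcam1. In the same edgeR fit the 4T1 difference passed for Mal (adjusted p = 0.00851) and Vcam1 (0.0337). It did not pass for Prl2c2 (0.0544) or Krt14 (0.0921). Krt14 in TS/A rested on 47 and 32 reads in the libraries labelled empty and 20 and 15 in those labelled Gpr56. In tests on simulated data the comparison between the lines made more false calls than the threshold allows, and the 8 calls are read with that limit. The count of 8 moved widely with the libraries used, to 2391 without TS/A empty library 2, 311 without TS/A empty library 1 and 1 or 0 without any other library.

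Lists were set side by side too, with 4T1 counts and medians taken from a fit of the 4T1 libraries alone (11361 genes). In 4T1 the ATF4 list had 6 of 37 tested members higher in both libraries labelled Gpr56 (30.5% of all genes) and 21 lower (31.2% of all genes), with a median log2 fold change of -0.13. The test of the difference between the lines gave 0 ATF4 members past the adjusted threshold and 16 of 37 with an unadjusted p under 0.05 (6.4% of all genes), with a median difference of 0.55. For the mitochondrially encoded genes all 13 were lower in both libraries labelled Gpr56 in 4T1 (31.2% of all genes), and the median there was -0.54. The median difference between the lines was -0.04, with 0 members past the adjusted threshold and 1 with an unadjusted p under 0.05. Of 24 cholesterol synthesis genes in 4T1, 19 were higher (30.5% of all genes) and 1 was lower (31.2% of all genes). Their median there was 0.14, and their median difference between the lines was -0.31.

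The identity of the line was checked against cell type markers, in CPM of the library total. Of 12 mammary epithelial markers 9 were under 1 CPM in all 4 TS/A libraries, Epcam, Cdh1 and Krt8 among them, and Cldn3 had 0 reads. Krt18 (from 157 to 202 CPM), Krt19 and Elf3 were present. TS/A thus carried few of the epithelial markers fixed for the gland, and the summed level was 205.5 and 211.1 CPM in the libraries labelled empty and 216.7 and 269.9 CPM in those labelled Gpr56. Immune markers were at 0 in 14 of 20, with a sum from 2.73 to 3.20 CPM. The fibroblast list reached a sum of 354 and 141 CPM in the libraries labelled empty and of 218.5 and 158.1 CPM in the others, and was almost all Col1a1 (328, 131, 202 and 142 CPM). Pdgfra and Pdgfrb were also present at lower levels. Pdgfra had 366 and 156 reads in the libraries labelled empty and 286 and 252 in those labelled Gpr56. Pdgfrb had 218 and 36 reads against 139 and 92. Dcn, Lum, Thy1 and Col3a1 had from 0 to 2 reads in each library. The fibroblast sum followed the order of the libraries seen in the matrix list, which also holds Col1a1, so the orders are not separate observations.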

How the data were processed

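The deposited files give, for 65042 transcripts in each library, whole-number read counts and RPKM, per the file headers. Per the labels' protocols libraries came from TruSeq RNA kit v2. That kit keeps no strand, so overlapping genes on opposite strands cannot be told apart. The sources used here do not give the aligner, counter or build. Among transcripts with at least 21 reads in a library and a GENCODE length, the authors' deposited RPKM equalled reads over transcript length and 1 factor per library, within a relative tolerance of 0.001, for 98.35% to 98.45%. It was used only for that check. Counts were summed to 22026 gene names, 14625 with a read in TS/A. GENCODE M21 (GRCm38) gave positions, lengths and GC content.

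The 4 TS/A libraries were fitted alone with edgeR 4.0.16 in R 4.3.3 (filterByExpr, TMM, quasi-likelihood test, Benjamini-Hochberg over 11276 genes, threshold 0.05). The difference between lines used all 8 libraries. List counts and medians for 4T1 came from the 4T1 libraries fitted alone in the same way (11361 genes). Standard errors are the log2 fold change over the square root of F. CPM use TMM scaling except in marker lists, and log2 levels use a prior count of 2. In the shallowest TS/A library, with 19598118 reads, 3 reads are 0.153 CPM, which covers counting error only. Lists are described by counts and medians, with no set test. DESeq2 1.42.0, limma-voom 3.58.1, other scalings and filters, single libraries left out, and removal of length and GC trends (splines with 5 degrees of freedom, added after seeing the data) were alternatives. The code was tested on simulated data. There the fit of TS/A alone found most large changes and no small ones. The simulated libraries of that fit carried no length trend, unlike the real ones, so the share found need not hold for these data. A count of 0 called genes therefore leaves small changes undetected and does not exclude large ones. The difference between lines and the fit with the length trend removed made more false calls than the threshold allows.

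The named genes were Adgrg1, the 10 widest gaps each way above 10 CPM with a standard symbol (2 predicted genes were passed over), the 8 largest differences each way between the libraries labelled empty, the calls between lines, and for each list its most abundant members and widest gap; 1 such gene is not reported here. Other list members were chosen after their values were seen. The members and lists were chosen with earlier results of these data known.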

Additional observations from a re-analysis of the deposited data

Results flagged for a closer look

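The log2 fold change between the libraries labelled Gpr56 and empty differed between TS/A and 4T1 for 8 genes. The test was edgeR's test of the difference, at an adjusted p under 0.05. The values given are log2 fold changes in TS/A minus those in 4T1, and in TS/A the labels conflict on whether the groups differ in vector or in collagen. For Adgrg1 the value was -5.67, and the gene was higher under the Gpr56 label in 2 of 2 libraries of 4T1 and overlapped in TS/A. Mal stood at -3.01, Prl2c2 at -2.38 and Krt14 at -1.95, each lower in both TS/A libraries labelled Gpr56 and higher in both of 4T1. Hspb1, a small heat shock protein gene, stood at -2.37, with 8.86 and 7.86 CPM against 8.80 and 7.43 CPM in TS/A and 3.43 and 3.38 CPM against 15.4 and 18.8 CPM in 4T1. Anxa8, an annexin gene, stood at -1.76, with 7.59 and 8.72 CPM against 5.98 and 5.54 CPM in TS/A and 58.9 and 52.8 CPM against 134.2 and 134.2 CPM in 4T1. Vcam1 stood at 1.60. Epdr1, an ependymin-related gene, stood at 4.11 with nearly level values in TS/A (82.9 and 83.9 CPM against 86.8 and 90.3 CPM), and its size depends on the prior count because 1 library of 4T1 labelled Gpr56 had 0 reads.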

How the results depend on the processing

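The limit here is 2 libraries per group with the libraries labelled empty far apart; depth, from 19598118 to 25959142 reads, was similar in all 4. The count of genes higher and lower in the libraries labelled Gpr56, 0 and 0, became 2 and 2 with no filter on low counts and 1 and 2 in DESeq2, and 0 and 1 with all 8 libraries. It stayed at 0 and 0 with the other scalings, the filter of 10 CPM, limma-voom, gene sums by GENCODE identifier, the mitochondrial genes left out, and the length trend or length and GC trends removed. Leaving out each library in turn gave from 2 to 687 higher and from 2 to 453 lower genes. With the replicate number as a block the counts were 20 and 6, and with the block and the length trend removed together 62 and 43. Deviations of same-numbered libraries correlated at 0.34, which with 2 pairs and no label behind the number does not make them pairs.

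The log2 fold change of Adgrg1 ran from -0.93 to 0.139 with single libraries left out. Leaving out libraries moved list medians as follows: the Adgrg1 partners from -0.22 to 0.23, the mitochondrially encoded genes from -0.84 to -0.17, the ATF4 list from 0.26 to 0.72, the ribosomal protein genes from -0.22 to 0.58, and glycolysis and hypoxia from 0.071 to 0.27. For G1-S genes the range was -0.21 to -0.038, for matrix genes -0.48 to 0.29, for TGF-beta -0.42 to 0.18 and for NRF2 0.072 to 0.13. For angiogenesis it was 0.012 to 0.21, and for YAP and SRF targets -0.14 to 0.062. The median of the angiogenesis list was 0.15 and that of chemokines and cytokines 0 with the filter of 10 CPM. The NRF2 median was 0.029 with the length trend removed, -0.009 with length and GC trends removed and 0.04 with the block and the length trend together. The cause of these moves was not tested. For the 57 named genes whose groups did not overlap, leaving out a library cannot turn the sign, so their direction is no sign of stability. Of the 25 other named genes besides Adgrg1, 21 changed sign in a fit without 1 library. Their log2 fold changes, the lowest and highest without 1 library, ran from -0.22 to 0.14 for Rhoa, -0.42 to 0.21 for Gna13, -0.13 to 0.091 for Atf3, -0.50 to 0.18 for Cebpb, -0.12 to 0.35 for Cebpg, -0.053 to 1.57 for Psph, -0.17 to 0.84 for Phgdh, -0.14 to 0.88 for Psat1 and -0.027 to 0.86 for Stc2. They ran from -0.78 to 0.078 for mt-Co1, -0.77 to 0.08 for mt-Cytb, -0.45 to 0.41 for Cxcl1, -0.088 to 0.082 for Actb, -0.28 to 0.064 for Actg1 and -0.16 to 0.074 for Hspb1. For genes named because the libraries labelled empty differed, the ranges were -1.93 to 0.53 for C3, -2.19 to 0.76 for Notum, -1.63 to 0.35 for Axin2, -1.20 to 0.58 for Ltbp2, -0.39 to 1.13 for Mrpl53 and -0.50 to 1.08 for Tefm.

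The count of 8 genes that differed between the lines was 4 with library totals, 60 with no filter, 66 in DESeq2, 0 in limma-voom, 15 with the length trend removed and 37 with the replicate block. It ran from 0 to 2391 with single libraries left out. The 8 genes lost the call in 60 of 128 values from these alternatives. The 756 genes past 2-fold between the libraries labelled empty became 1497 with no filter, 333 with the filter of 10 CPM, 460 with the length trend removed and 390 with length and GC trends removed.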
